A study of Homo sapiens with 6 samples.

Results

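PKM encodes pyruvate kinase of muscle type, the glycolytic enzyme that turns phosphoenolpyruvate into pyruvate and yields ATP. Its transcript contains a pair of mutually exclusive exons of equal length. Exon 9 gives PKM1, the form of adult muscle and brain, whose enzyme is constitutively active. Exon 10 gives PKM2, the form of embryonic, dividing and tumour cells, whose activity is regulated by fructose 1,6-bisphosphate and by phosphotyrosine. The splicing repressors PTBP1, HNRNPA1 and HNRNPA2B1 are known to keep exon 9 out in dividing cells.

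PKM splice junctions were read in the human line K562, which derives from chronic myeloid leukaemia. Junctions on the minus strand of chromosome 15 were kept where the whole intron lay inside the PKM locus, which gave 49 of the 780566 junctions listed in the 6 tables. Their introns lay between 72492098 and 72523664 (hg19). The groups were 3 libraries of cells with the genotype U2AF1 wild type knock-in and 3 libraries of cells with U2AF1 S34F. U2AF1 is the small subunit of the factor that contacts the AG at the 3′ end of an intron, and S34F exchanges a serine in its first zinc finger for phenylalanine. The comparison asks whether PKM splice sites are chosen differently in the mutant cells. No treatment, clone number or culture is named for either group, so the p-values below measure only the spread between these libraries, which may be technical. The libraries held between 18074706 (S34F replicate 2) and 39279169 (S34F replicate 3) unique spliced reads, that is, reads that map to a single place and span a junction.

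PKM2 was the main form in every library. Of the reads that joined exon 9 or exon 10 to their neighbours, exon 9 took 3.76% ± 1.48 in wild type (mean ± SD, 3 libraries) and 5.02% ± 1.08 in S34F (3 libraries), and the ranges of the groups overlapped. No choice between splice sites in PKM passed the test for a difference between the groups. At the 3′ splice site of exon 2, the minor 5′ splice sites together took a few percent of the unique reads, and their share in each S34F library lay above that in every wild-type library. Such a lack of overlap was seen for 22.4% of all junctions tested for use of a 5′ splice site, and this one was not called. With multi-mapped reads added, which may count a read at more than 1 site, the groups overlapped there.

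In all, 24 of the 49 junctions were annotated in the files and 25 were not. Unique reads were present at 22 of the annotated and 24 of the unannotated junctions. The other 2 annotated and 1 unannotated junctions had only multi-mapped reads, which fit more than 1 place in the genome. The PKM junctions together held 112771 unique reads. The 10 junctions with at least 500 unique reads, which held 99.0% of them, joined exons 1 to 8 in order, exon 8 to exon 10, exon 10 to exon 11, and exon 11 to exon 12.

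**Figure D1:**
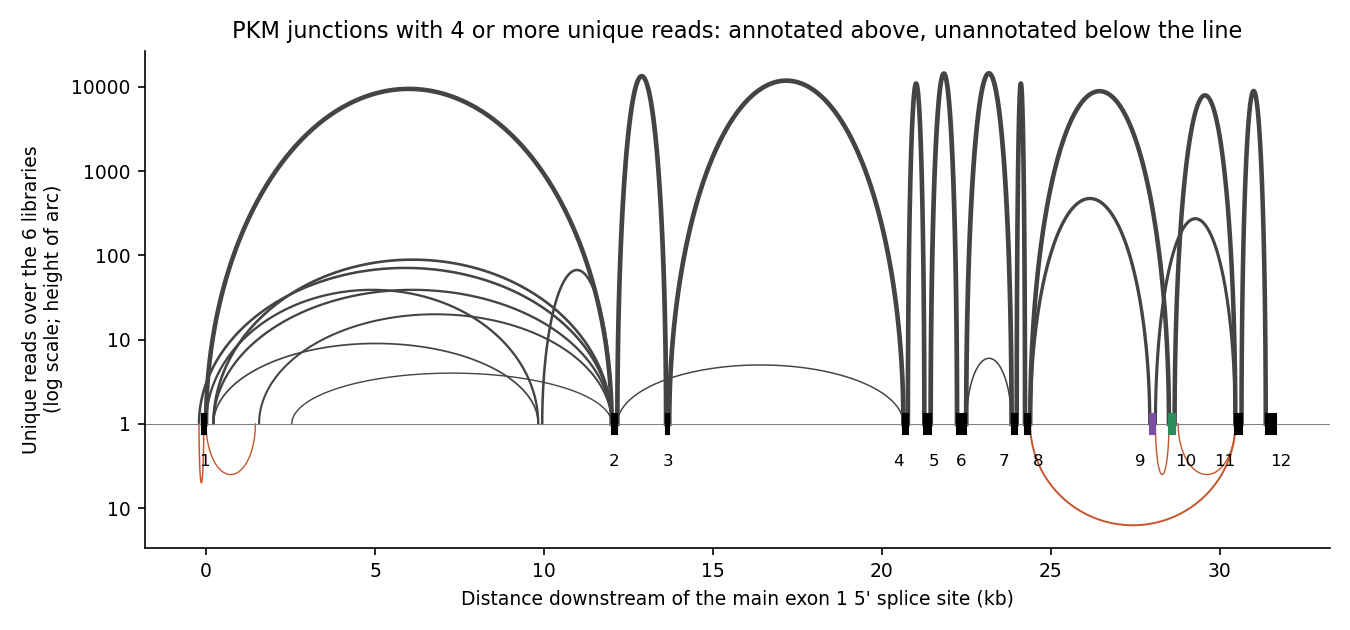
Map of the PKM junctions with 4 or more unique reads, placed by distance in kb downstream of the main exon 1 5′ splice site. The height of each arc is the number of unique reads over the 6 libraries on a log scale, with annotated junctions above the line and unannotated ones below it. Boxes mark exons, with exon 9 (PKM1) in purple and exon 10 (PKM2) in green, and the outer ends of exons 1 and 12 are drawn at a nominal width. The tall arcs run from exon to exon except at exon 9, whose arcs stand at 474 and 273 reads, and the deepest unannotated arc, from exon 8 to exon 11, stands at 16.

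Exon 9 lay at chr15:72495363-72495529 (hg19, minus strand) and exon 10 at chr15:72494795-72494961, as bounded by the introns in the files. Both were 167 nt long. They share the 5′ splice site of exon 8 upstream and the 3′ splice site of exon 11 downstream. The intron from exon 8 to exon 9 spans 72495530 to 72499068 and the one from exon 9 to exon 11 spans 72492997 to 72495362. The PKM2 introns span 72494962 to 72499068 (exon 8 to exon 10) and 72492997 to 72494794 (exon 10 to exon 11).

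The junction from exon 8 to exon 9, which opens the PKM1 path, had 72, 79 and 67 unique reads in wild-type replicates 1 to 3 and 107, 53 and 96 in S34F replicates 1 to 3. The junction from exon 9 to exon 11 had 28, 38 and 42 reads in wild type against 83, 25 and 57 in S34F. The S34F replicate 1 library held the most reads at both PKM1 junctions, and the groups overlapped at both. The junction from exon 8 to exon 10, which opens the PKM2 path, had 2096, 1697 and 1020 reads in wild type against 1614, 975 and 1519 in S34F. The junction from exon 10 to exon 11 had 1911, 1531 and 906 reads in wild type against 1296, 910 and 1410 in S34F. PKM2 junctions thus outnumbered PKM1 junctions in each of the 6 libraries on both sides of the exon pair.

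The PKM1 share, exon 9 reads as a percent of exon 9 plus exon 10 reads over both junctions of each exon, was 2.43% (95% Clopper-Pearson interval 1.99 to 2.95), 3.50% (2.90 to 4.18) and 5.36% (4.42 to 6.43) in wild-type replicates 1 to 3. It was 6.13% (5.31 to 7.03), 3.97% (3.15 to 4.93) and 4.96% (4.22 to 5.79) in S34F replicates 1 to 3. The intervals account for counting error alone, because amplified copies of a molecule cannot be told apart here. Wild-type replicate 3 lay above 2 of the 3 S34F libraries, and the intervals of wild-type replicates 1 and 3 did not overlap, so the spread within the wild-type group exceeded counting error.

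The mean PKM1 share was 1.26 percentage points higher in S34F, which was within the spread between libraries (exact permutation test, two-sided: p = 0.3, and adjusted for the 4 per-library measures of PKM, 0.4). The smallest p this exact test allows for 3 against 3 libraries is 0.1. In edgeR's quasi-likelihood test over all 47155 mutually exclusive exon pairs, the log2 odds of exon 9 against exon 10 were 0.55 higher in S34F (SE 0.24, unadjusted p = 0.039, Benjamini-Hochberg adjusted p = 0.25). The pair was not called, where a call needed an adjusted p under 0.05 and group mean shares at least 10 percentage points apart. Of all exon pairs, 1.72% were called. Of the 5 PKM combinations that fit the definition of such a pair, 0 were called and 0 passed on the adjusted p alone (4.56% of all pairs did). The shares of the groups overlapped for all 5, while they did not overlap for 21.8% of all pairs. An unadjusted p under 0.05 was reached by 3 of these 5 in edgeR (17.8% of all pairs), and these 3 use the same exon 9 reads. Only 1 of the 5, exon 9 against exon 10, had at least 10 reads on each junction. In a fit limited to such pairs, a limit chosen after seeing the data, its log2 odds difference was 0.54 (edgeR adjusted p = 0.19). Of the 3224 pairs in that fit, 135 were called, 297 passed on the adjusted p alone and the groups did not overlap for 859. Without wild-type replicate 3 the log2 odds difference was 0.83 (edgeR adjusted p = 0.050), and without wild-type replicate 1 it was 0.27 (edgeR adjusted p = 0.56); the adjusted p ranged from 0.050 to 1 over the 15 alternative settings run. Without wild-type replicate 3, 1 of the 5 combinations passed on the adjusted p alone (log2 odds difference 0.81, edgeR adjusted p = 0.045). In it exon 10 ends at a minor 5′ splice site (72494689), whose junction to exon 11 had 4 unique reads over the libraries. The groups did not overlap for 4 of the 5 when that library was left out. Of all 46219 pairs tested in that setting, 1199 passed on the adjusted p alone and the groups did not overlap for 14413. None of the 5 PKM combinations met the 10 point minimum. For exon 9 against exon 10 this minimum was larger than the mean share of either group, so a call was hardly in reach.

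**Figure D2:**
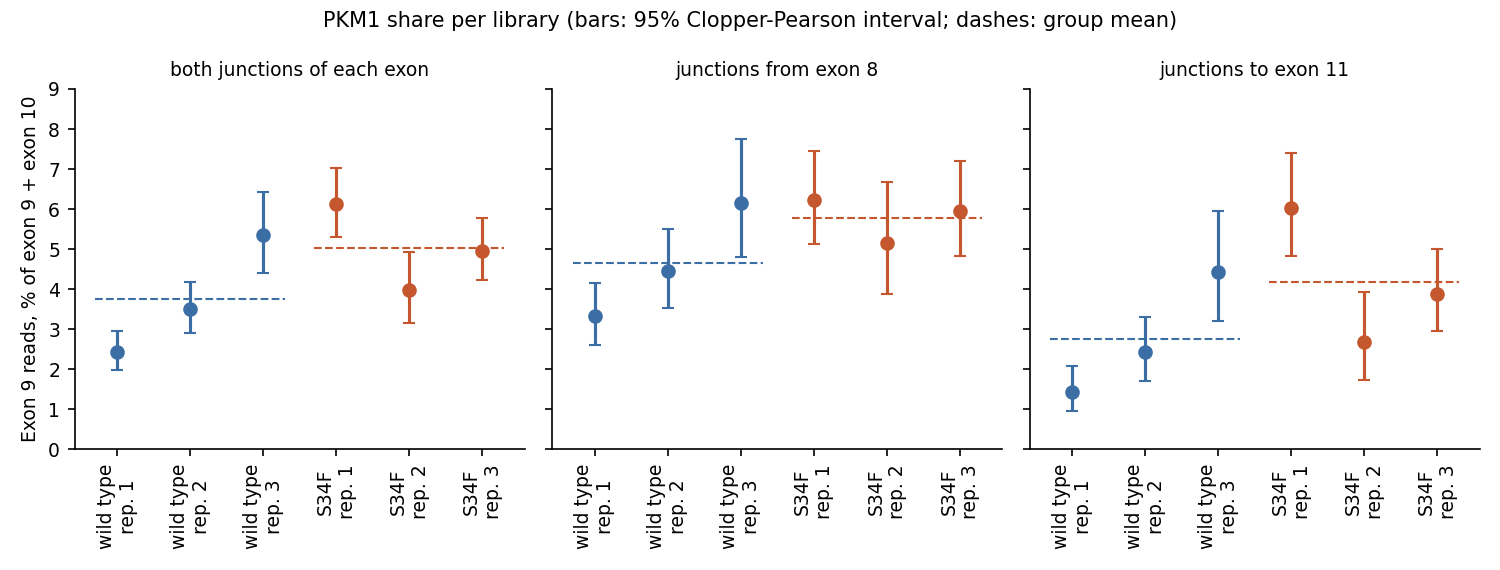
PKM1 share in each library, as exon 9 reads in percent of exon 9 plus exon 10 reads, from both junctions of each exon (left), from the junctions that leave exon 8 (middle) and from those that enter exon 11 (right). Points are libraries, bars are 95% Clopper-Pearson intervals and dashed lines are group means. Wild-type replicate 1 is lowest in all 3 panels and S34F replicate 1 is highest in all 3, while the other 4 libraries interleave.

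The upstream and downstream junctions gave different levels of PKM1. From exon 8, the PKM1 share was 3.32%, 4.45% and 6.16% in wild type against 6.22%, 5.16% and 5.94% in S34F. Into exon 11, it was 1.44%, 2.42% and 4.43% in wild type against 6.02%, 2.67% and 3.89% in S34F. In unique reads, the share was lower on the downstream side in 6 of 6 libraries. With multi-mapped reads added at these junctions, it was higher on the downstream side in each library. The groups overlapped on both sides (two-sided exact permutation test, p = 0.3 upstream and p = 0.4 downstream). The number of unique reads entering exon 9 divided by the number leaving it was 2.57, 2.08 and 1.59 in wild type against 1.29, 2.12 and 1.68 in S34F. The same ratio for exon 10 stayed between 1.07 and 1.25.

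Multi-mapped reads were concentrated at the downstream PKM1 junction. The junction from exon 9 to exon 11 had 121, 119 and 61 multi-mapped reads in wild type against 68, 71 and 94 in S34F, which was 45.0% to 81.2% of all its reads. The junction from exon 10 to exon 11 had nearly the same numbers in each library, 125, 121 and 58 in wild type against 69, 73 and 96 in S34F, but these were 5.05% to 7.43% of its reads. Over the 6 libraries the 2 junctions had 534 and 542 multi-mapped reads. With multi-mapped reads added, the PKM1 share was 5.76%, 7.02% and 8.27% in wild type against 8.66%, 7.61% and 8.07% in S34F. The means were then 7.02% and 8.11% (two-sided exact permutation test, p = 0.3), and the difference in log2 odds was 0.27 (edgeR adjusted p = 1). The level of PKM1 therefore depended on whether these reads were counted, while the groups overlapped either way. Whether the same reads were counted at both junctions was not tested, and if so they enter exon 9 and exon 10 alike.

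Scaled to unique spliced reads, exon 9 had 3.93, 4.69 and 5.62 reads per 1000000 unique spliced reads (RPM) in wild type against 8.10, 4.32 and 3.895 in S34F, both junctions together. Exon 10 had 157.6, 129.5 and 99.4 RPM in wild type against 124.0, 104.3 and 74.6 in S34F. The wild-type library with the lowest exon 10 level, replicate 3, had the highest exon 9 level of its group. S34F replicate 3 was lowest of its group for both exons. Neither exon separated the groups.

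**Figure D3:**
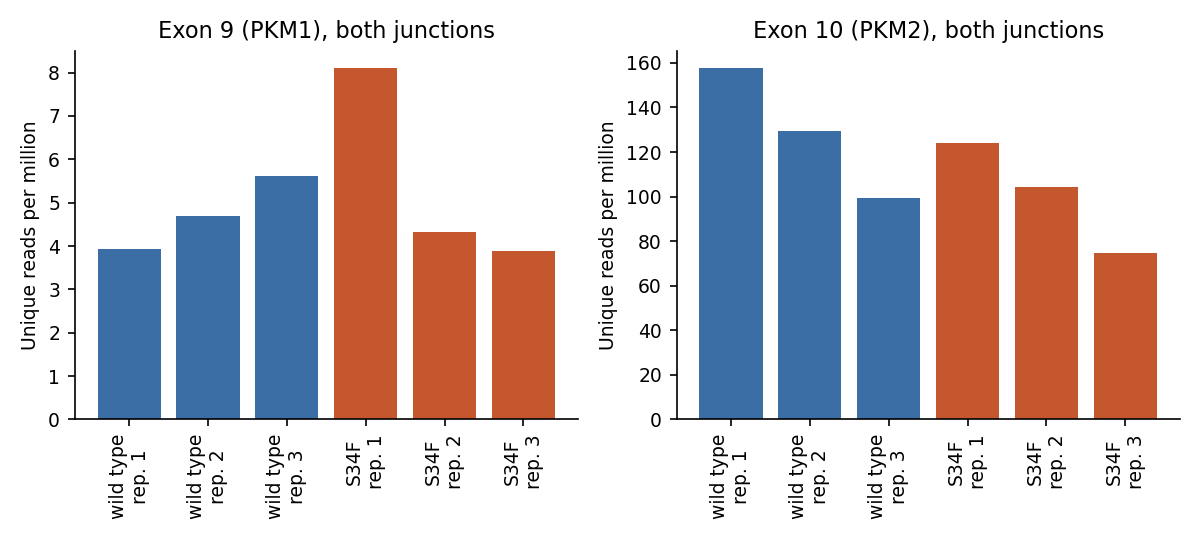
RPM at both junctions of exon 9 (left, PKM1) and of exon 10 (right, PKM2), 1 bar per library, on axes that start at 0. Exon 9 is highest in S34F replicate 1 at 8.10 and exon 10 is highest in wild-type replicate 1 at 157.6, and the bars of the groups overlap in both panels.

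Both exons are used in alternation, and reads that broke this pattern were few. The unannotated junction from exon 8 to exon 11 (72492997 to 72499068), which leaves out both exons, had 3, 1 and 1 unique reads in wild type against 4, 2 and 5 in S34F. This was the one unannotated PKM junction with reads in all 6 libraries and the one with at least 10 reads in total. As a share of the reads that leave exon 8, it was 0.138%, 0.056% and 0.092% in wild type against 0.232%, 0.194% and 0.308% in S34F. The lowest S34F share was above the highest wild-type share, on 5 reads in wild type and 11 in S34F. The log2 odds difference was 1.29 (SE 0.75, edgeR adjusted p = 0.35), and the junction was not called. At these shares the 10 point minimum was hardly in reach. The junction that joins exon 9 to exon 10 (72494962 to 72495362), which would keep both exons, had 4 unique reads, of which wild type held 3.

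The other 3′ splice sites that compete for the exon 8 5′ splice site were not called either. The site of exon 9 took 4.64% ± 1.43 of the reads leaving exon 8 in wild type and 5.76% ± 0.55 in S34F (log2 odds difference 0.38, SE 0.34, edgeR adjusted p = 0.59). The site of exon 10 took 95.3% ± 1.41 and 94.0% ± 0.60 (log2 odds difference -0.41, SE 0.34, edgeR adjusted p = 0.54). Of the 5 PKM junctions tested for use of a 3′ splice site, 0 were called, against 2.11% of all such junctions. None of the 5 passed on the adjusted p alone (4.63% of all did) or had an unadjusted edgeR p under 0.05 (19.9% of all did). The shares of the groups did not overlap for 3 of the 5, against 25.2% of all junctions tested. These 3 were the junction from exon 8 to exon 11, the junction from exon 1 to exon 2 and the junction from exon 1 to a minor exon described further on. Both exon 1 junctions leave the same 5′ splice site, so a rise in the share of either lowers the other.

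At the 3′ splice site of exon 11, the exon 10 junction took 97.1% ± 1.51 of the reads in wild type and 95.4% ± 1.66 in S34F (log2 odds difference -0.80, SE 0.41, edgeR adjusted p = 0.33). The exon 9 junction took 2.76% ± 1.52 and 4.18% ± 1.69 (0.72, SE 0.43, edgeR adjusted p = 0.41). With multi-mapped reads added, these differences were -0.23 and 0.18 (edgeR adjusted p = 0.75 and 0.81). Inclusion of exon 10 against skipping of both exons was 99.9% in wild type and 99.7% in S34F (-1.33, SE 0.72, edgeR adjusted p = 0.27). Inclusion of exon 9 against the same skipping junction was 96.96% and 94.99% (-0.72, SE 0.73, edgeR adjusted p = 0.59). Of the 3 PKM exons tested for inclusion, 0 were called (2.74% of all exon combinations tested were). Likewise 0 passed on the adjusted p alone (5.76% of all) and 0 had an unadjusted edgeR p under 0.05 (23.9% of all), and the groups did not overlap for 1 of them, against 29.2% of all. That exon was exon 10, whose inclusion here is set by the same 16 skipping reads.

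The 5′ splice sites joined to exon 2 formed the other place in PKM with several choices. Exon 2 lay at 72511285 to 72511451. The main exon 1 site, whose intron spans 72511452 to 72523456, took 97.4%, 97.5% and 97.0% of the exon 2 reads in wild type against 96.4%, 96.6% and 96.0% in S34F. The sites other than this one took 2.61%, 2.52% and 2.99% in wild type against 3.64%, 3.40% and 4.02% in S34F, on 1089 to 2187 reads per library. These sites include some outside the locus that join exon 2, with few reads. Their mean was 2.71% ± 0.25 in wild type and 3.68% ± 0.31 in S34F, and the groups did not overlap in unique reads. With multi-mapped reads added, these sites took 6.93%, 8.48% and 9.30% in wild type against 8.87%, 9.48% and 8.88% in S34F, and wild-type replicate 3 then lay above 2 of the 3 S34F libraries. The sites at 72513508, 72514790, 72523240 and 72523664 had 91, 89, 85 and 87 multi-mapped reads over the 6 libraries, nearly alike in each library. Whether the same reads were counted at several of these sites was not tested, and if so the sum counts them more than once. The main site was not called (log2 odds difference -0.47, SE 0.35, edgeR adjusted p = 0.53), and its difference was -0.17 with multi-mapped reads added (edgeR adjusted p = 0.83). Of the 9 PKM junctions tested for use of a 5′ splice site, 0 were called, against 0.934% of all such junctions, and 0 passed on the adjusted p alone, against 2.04%. The groups did not overlap for 4 of the 9, against 22.4% of all. These were the main site, the sites at 72523240 and 72523664, and the junction from exon 8 to exon 11. They are not independent, since the main site's share falls as those of the minor sites rise. The junction from exon 8 to exon 11 rests on the same 16 reads as above. An unadjusted edgeR p under 0.05 was reached by 2 of the 9, against 17.3% of all.

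Both of these lay near exon 1. The annotated site at 72523664, 208 nt upstream of the main one, took 0.69%, 0.49% and 0.18% of the exon 2 reads in wild type (15, 10 and 2 reads) and 0.74%, 1.10% and 1.15% in S34F (12, 12 and 20 reads). All 3 S34F shares were above the wild-type shares, although wild-type replicate 1 and S34F replicate 1 were close (log2 odds difference 1.03, SE 0.49, unadjusted p = 0.045, edgeR adjusted p = 0.28). The annotated site at 72523240, 216 nt downstream of the main one, took 0.091%, 0.35% and 0.26% in wild type (2, 7 and 3 reads) and 0.49%, 0.46% and 0.80% in S34F (8, 5 and 14 reads). It begins with GC in place of the usual GT. Its log2 odds difference was 1.38 (SE 0.59, unadjusted p = 0.026, edgeR adjusted p = 0.22). With multi-mapped reads added, the differences shrank to 0.47 at the upstream site (edgeR adjusted p = 0.52) and 0.43 at the GC site (edgeR adjusted p = 0.60), and the shares of the groups still did not overlap at either.

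The GT site only 4 nt further downstream, at 72523236, did not separate the groups. It took 1.10%, 0.69% and 0.97% in wild type against 1.11%, 0.64% and 0.86% in S34F (log2 odds difference -0.05, SE 0.42, edgeR adjusted p = 0.97). Over the 6 libraries this GT site had 89 unique reads joined to exon 2 and the GC site 39. The groups also overlapped at the sites 1569 nt downstream (20 reads, edgeR adjusted p = 1.00) and 9948 nt downstream (67 reads, edgeR adjusted p = 0.90). The difference between the GC and GT sites was not tested.

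**Figure D4:**
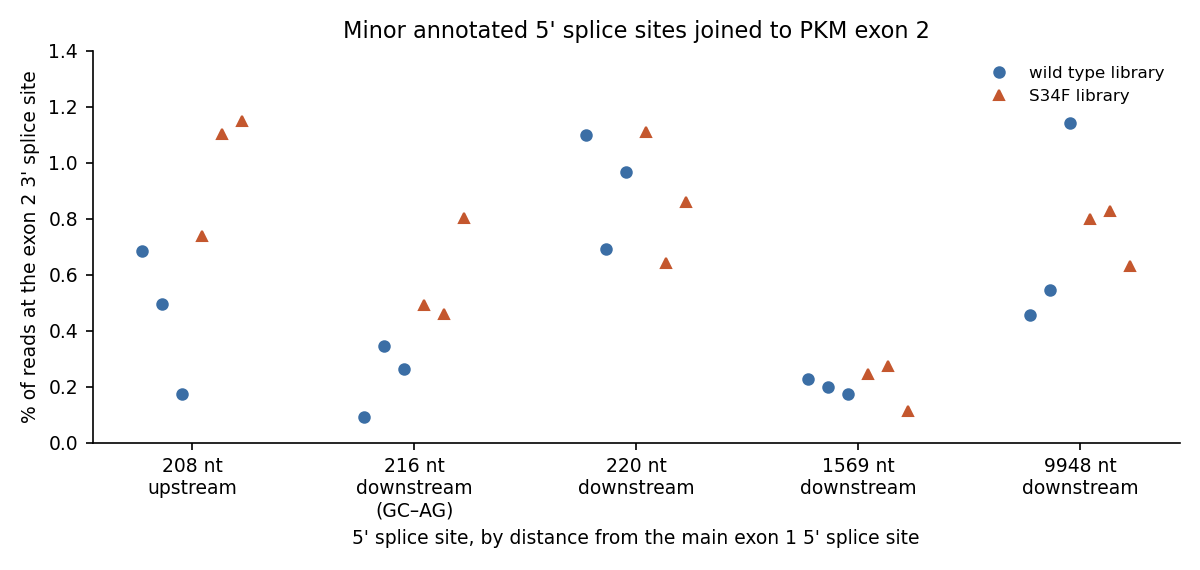
Share of the reads at the exon 2 3′ splice site that came from each minor annotated 5′ splice site, in percent, with sites ordered by distance from the main exon 1 site. Circles are wild-type libraries and triangles S34F libraries, replicates 1 to 3 from left to right. The triangles lie above the circles at the sites 208 nt upstream and 216 nt downstream, and the symbols overlap in height at the other 3 sites.

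The site 9948 nt downstream of exon 1 belongs to an alternative exon of 117 nt at 72513509 to 72513625. Over the 6 libraries 50 unique reads entered it and 67 left it for exon 2. Of the reads entering, 39 came from the main exon 1 site and 9 from the site at 72523236. Its share of the reads leaving the main exon 1 site was 0.30% in wild type and 0.54% in S34F (log2 odds difference 0.92, SE 0.56, edgeR adjusted p = 0.38), and its inclusion against the direct junction from exon 1 to exon 2 was 0.53% and 0.69% (0.50, SE 0.48, edgeR adjusted p = 0.57, and 0.25 with multi-mapped reads added). Its share was thus below 1% in both group means. An exon of 108 nt at 72521888 to 72521995 had 4 reads in and 21 out.

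Among the annotated introns, 2 of the 10 with the most reads begin with GC. The intron from exon 6 to exon 7 (72499619 to 72500961) had 14529 unique reads and the one from exon 7 to exon 8 (72499222 to 72499467) had 11011. With the minor exon 1 site they made 3 GC–AG junctions in PKM, or 12.5% of its annotated junctions, against 1.60% of the annotated junctions in the 6 tables. They carried 22.7% of the PKM unique reads, and GC–AG junctions carried 0.704% of the unique reads at all annotated junctions. An annotated GT site lies 4 nt downstream of the GC site of exon 6, at 72500957. It had 6 unique reads, with a largest overhang of 8 nt, so nearly all reads at exon 6 used the GC site.

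Reads at new 3′ splice sites next to the annotated ones, where U2AF1 makes its contact, were rare in PKM. Among the 24 unannotated junctions with a unique read, 5 used an unannotated 3′ splice site within 100 nt of an annotated exon start, with 6 reads in all, 3 in each group. In total the unannotated junctions had 7 reads in each wild-type library and 13, 5 and 16 in the S34F libraries. Their share of the PKM reads was 0.027%, 0.032% and 0.053% in wild type against 0.067%, 0.040% and 0.079% in S34F, so that wild-type replicate 3 lay above S34F replicate 2. The means were 0.038% ± 0.014 and 0.062% ± 0.020 (exact permutation test, two-sided: p = 0.2, adjusted 0.4). Of these 24 junctions, 16 had a single read, 7 had reads in wild type only, 10 in S34F only and 7 in both.

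The annotated junctions not yet described had almost no unique reads. Skipping of exon 3, by the junction from exon 2 to exon 4 (72502820 to 72511284), had 5 unique and 81 multi-mapped reads over the 6 libraries, with a largest overhang of 13 nt. Into exon 2, the 5′ splice site at 72520917 had 4 unique and 46 multi-mapped reads, and those at 72514790 and 72511730 had 0 unique reads with 89 and 2 multi-mapped ones. Among the 24 unannotated junctions with a unique read, 5 joined sites that are both annotated, 10 used an annotated 5′ splice site alone, 7 an annotated 3′ splice site alone, and 2 neither.

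Set against all other junctions of the same library, PKM had few unannotated reads. They made up 0.027% to 0.079% of PKM reads and 1.03% to 1.38% of the other reads, lower for PKM in 6 of 6 libraries (two-sided exact sign-flip permutation test, p = 0.031, the smallest that 6 libraries allow, adjusted p = 0.031 over 2 measures). Multi-mapped reads made up 2.14% to 2.71% of PKM reads and 6.58% to 8.08% of the others, also lower in 6 of 6 (exact sign-flip permutation test, p = 0.031, adjusted p = 0.031). Both tests set PKM against the pooled other junctions of these libraries. They ask only whether the direction repeats between libraries of the same cell line, and cannot show whether PKM is unusual. How PKM ranks among single genes was not tested.

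PKM junctions were among the most read of these cells. The 7 PKM introns that carried at least 98% of the reads at both of their splice sites ranked between the 99.3 and 99.6 percentile of the 242682 annotated junctions by mean RPM. The sum over all PKM junctions was 1005, 882.4 and 678.8 RPM in wild type against 831.1, 688.0 and 512.5 in S34F. Wild-type replicate 1 was highest and S34F replicate 3 lowest, and wild-type replicate 3 lay below 2 of the 3 S34F libraries. The mean was 855.3 ± 164.6 in wild type and 677.2 ± 159.6 in S34F, a ratio of 0.79 (exact permutation test, two-sided: p = 0.3, adjusted 0.4). In bulk RNA, fewer cells with PKM RNA and less PKM RNA per cell cannot be told apart.

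At the level of single junctions, 15 PKM junctions were tested and 0 were called, against 0.203% of all annotated junctions tested (edgeR quasi-likelihood test, adjusted p under 0.05). At an unadjusted p under 0.05 there were 0 as well, against 13.7% of all. The 10 main junctions had log2 differences between -0.40 and -0.30. The largest in size were those of exon 1 to exon 2 (-0.40, SE 0.22, edgeR adjusted p = 0.45) and exon 4 to exon 5 (-0.40, SE 0.22, edgeR adjusted p = 0.44). The PKM1 junctions did not share this direction. The log2 difference was 0.05 (SE 0.25, edgeR adjusted p = 0.96) for exon 8 to exon 9 and 0.39 (SE 0.39, edgeR adjusted p = 0.70) for exon 9 to exon 11, and both turned negative when S34F replicate 1 was left out (-0.24 and -0.16). The first also did so without wild-type replicate 1 (-0.02), and the second with multi-mapped reads added (-0.19).

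**Figure D5:**
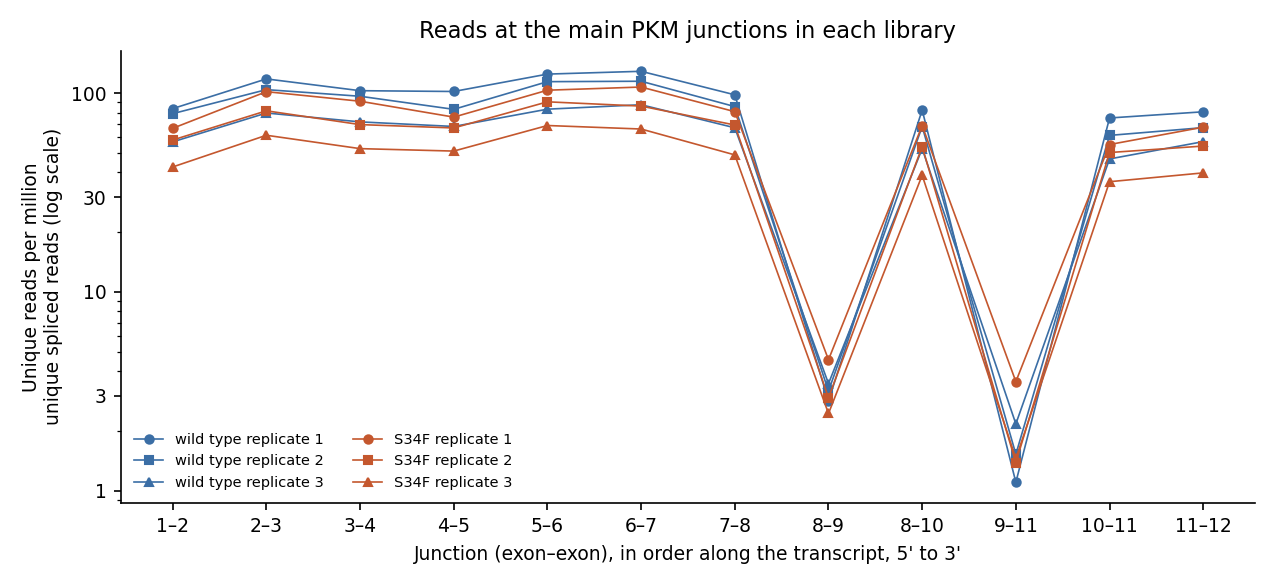
RPM at the 12 main PKM junctions in transcript order, on a log scale, 1 line per library. The lines of the 6 libraries run nearly parallel, fall to between 1 and 5 at both exon 9 junctions, and have wild-type replicate 1 at the top and S34F replicate 3 at the bottom of the other 10, with the order of the libraries between them changing.

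Coverage along the transcript overlapped between the groups. Reads at the last intron that all forms use, exon 11 to exon 12, over those at the first, exon 2 to exon 3, gave ratios of 0.68, 0.64 and 0.72 in wild type against 0.66, 0.66 and 0.65 in S34F. The means were 0.68 ± 0.037 and 0.66 ± 0.0099 (exact permutation test, two-sided: p = 0.5, adjusted 0.5). The difference of -0.023 ranged from -0.042 without wild-type replicate 2 to -0.0054 without wild-type replicate 3.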

How the data were processed

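RNA of K562 cells was poly(A)-selected, made into TruSeq libraries and sequenced on a HiSeq2000, per the labels' protocols. The submitters' processing notes name the aligner STAR and the build hg19; the versions and the annotation are not given in the sources used here. The authors deposited 1 junction table per library with raw counts of unique and of multi-mapped reads per junction and the largest overhang in nt, with no normalization. The 6 tables were joined by position, a missing junction being 0, and only same-strand junctions inside the PKM locus were kept as members. Exon numbers follow the usual PKM numbering, with exon ends read from the junctions. At each splice site, shares were taken over all junctions that use it.

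Events in 4 classes (mutually exclusive exons, 3′ site use, 5′ site use, exon inclusion) were built over all genes from unique counts, with at least 20 reads in every library and 10 on each side, and exons of at most 500 nt. They were fitted with edgeR 4.0.16 (R 4.3.3) as 2 counts per library with an intercept per library. Junction levels were fitted on annotated junctions after TMM scaling. P-values were Benjamini-Hochberg adjusted over all features of a class. A call needed an adjusted p under 0.05 and, for shares, 10 percentage points between the group means. Sites with a share of a few percent could hardly meet the second part, so passing on the adjusted p alone is given too. Per-library measures were compared with exact permutation tests. Each fit was run on simulated counts with changes larger than the PKM1 difference. Whether a change of that size would be found was not tested. Alternatives were DESeq2 1.42.0, limma 3.58.1 on log2 odds with 0.5 added, other scaling, filters and overhangs, multi-mapped reads, a replicate block and leaving out each library.

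Named junctions were the annotated ones and unannotated ones with at least 10 reads. The members, lists and rules were chosen with earlier results of these data known. Sequence at the splice sites, other glycolysis genes, splicing repressors, K562 markers and genes with a like pattern need the hg19 genome or annotation and were not analysed here. Replicate numbers gave no sign of pairing: the deviations of same-numbered libraries correlated at -0.14, -0.14 and -0.05 over 78578 junctions. Libraries with different numbers correlated at -0.10 to 0.20. Weak correlations like these cannot exclude that same-numbered libraries were prepared together.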

Additional observations from a re-analysis of the deposited data

Results flagged for a closer look

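An unannotated junction from a 5′ splice site at 72529731 on chromosome 15 (hg19), 6275 nt upstream of the main exon 1 site and outside the locus used above, joined the 3′ splice site of PKM exon 2. It had 0, 2 and 1 unique reads in wild-type replicates 1 to 3 and 4, 1 and 5 in S34F replicates 1 to 3, so that the groups overlapped. The 10 reads in S34F came to 0.124 RPM over the group, and the 3 reads in wild type to 0.043 RPM. It stands out because it was not among the PKM junctions tested and its level in S34F was above that in the wild-type controls. Its reads did count in the totals at the exon 2 3′ splice site and in the share of the sites other than the main one. A test of the difference is not reported here. No other result stood apart.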

How the results depend on the processing

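No PKM junction or exon met both parts of the call under the alternatives run. Without wild-type replicate 3, 1 PKM exon pair passed on the adjusted p alone (edgeR adjusted p = 0.045), against 1199 of all 46219 pairs. The PKM1 share, PKM RPM, unannotated share and 3′ to 5′ ratio kept their direction. Leaving out 1 library, the S34F minus wild-type difference ranged from 0.60 to 2.06 points for the PKM1 share, from -266.3 to -95.7 for PKM RPM, from -0.042 to -0.0054 for the 3′ to 5′ ratio and from 0.016 to 0.036 points for the unannotated share. The log2 odds difference of exon 9 against exon 10 was 0.52 with a replicate block (edgeR adjusted p = 0.34), 0.49 with DESeq2 (adjusted p = 0.87) and 0.49 with limma (adjusted p = 0.59). Adding multi-mapped reads brought the differences of exon 9 and exon 10 at the exon 11 3′ splice site, and of the main, upstream and GC sites at exon 2, closer to 0, as given beside them. The block changed no PKM call, and same-numbered libraries gave no sign of pairing.

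Directions turned at a few thinly read junctions. For use of the 5′ site at 72521887 the difference was 0.019 with limma, 0.28 with multi-mapped reads and 0.078 with the replicate block, and ranged from -0.19 to 0.34 leaving out 1 library. Leaving out 1 library also gave -0.074 to 0.58 for 72513508 and -0.25 to 0.14 for 72523236. For junction levels it gave -0.16 to 0.66 for exon 9 to exon 11 (-0.19 with multi-mapped reads), -0.24 to 0.28 for exon 8 to exon 9, and -0.41 to 0.11 for 72513508 to exon 2. The cause was not tested.

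Counts of calls over all genes moved more. Mutually exclusive exons gave 812 calls, 2150 without the minimum difference, 338 with DESeq2 and 0 with limma (7603 at an unadjusted p under 0.05). With multi-mapped reads they gave 0 calls among 348463 pairs, against 47155 pairs in the main fit. They gave 1253 calls without a low-count filter, 480 with the block and 217 to 1260 leaving out 1 library. With 10 reads on each junction (chosen after seeing the data) they gave 135 calls among 3224 pairs. Use of 3′ sites gave 1088, against 2386, 150 with DESeq2, 0 with limma, 494 without a filter and 77 to 1932. Use of 5′ sites gave 451, against 983, 183, 0, 210 and 4 to 1210 in the same order. Exon inclusion gave 528, against 1110 without the minimum difference, 265 with DESeq2, 0 with limma, 193 with the block and 0 to 1084 leaving out 1 library. Junction levels gave 229, against 1310 with DESeq2, 368 with total reads in place of TMM, 5138 without a filter, 50 with the block and 0 to 591 leaving out 1 library. Depth limits the minor junctions most: a site with 2 to 20 reads in a library cannot show small changes.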
